A study of Mus musculus with 12 samples.

Results

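The kidneys of 6 wild-type mice that breathed room air throughout were compared by RNA sequencing. In 3 of them both renal pedicles had been clamped through the abdomen for 45 min and released, and the kidneys were taken after 12 h of reperfusion (injured, renal ischemia–reperfusion injury). The other 3 mice were sham controls (sham), and what their operation involved is not described. These 6 libraries were taken by their group labels from 12 in the series, and the other 6 came from wild-type mice with the same 2 procedures after hypoxic preconditioning, which was 8% oxygen for 2, 4 and 8 h on 3 successive days, reached from room air over 20 min. The design text states 3 mice in each group, and the labels give the same batch number for all and no strain, age or sex. Whole kidney tissue was used, so a fall in a transcript from fewer cells of a type and a fall from less RNA per cell cannot be told apart.

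Clamping the renal pedicle stops blood flow to a tissue whose tubules live almost wholly on mitochondrial respiration. The straight segment of the proximal tubule and the thick ascending limb lie in the outer medulla, where oxygen is scarce even at rest, and they are known as the main sites of damage. In the hours after reflow surviving tubule cells are known to lose brush border and polarity, to induce secreted and membrane-bound injury proteins such as lipocalin 2 and kidney injury molecule 1, and to draw in neutrophils. Later in the first days they spread, divide and reline the tubule.

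The values were FPKM, fragments normalized by the authors for gene length and library size, for 25553 genes. A gene was tested if 3 or more of the 6 libraries had an FPKM of 1 or above, which left 11926 genes and put 13627 aside. H2-Q7 lay just inside this limit, where the value that decides passing was 1.0001, and Chek2 just outside it at 0.9993. Of the genes tested, 393 passed through the injured libraries only and 447 through the sham libraries only, and such genes had to differ. Some lists below hold a few such genes without a restatement. The 6 libraries held 33400523 to 35632033 reads by the whole-read steps of the values. Pearson correlations of log2(FPKM + 1) were 0.9967 to 0.9973 among the sham kidneys, 0.9924 to 0.9949 among the injured kidneys and 0.9384 to 0.9504 between the groups. Sham mouse 3 stood apart for stress genes that respond within minutes, with Egr1 at 5.7, 7.35 and 46.3 FPKM and Hspa1a at 12.9, 4.51 and 31.9 FPKM in the 3 sham kidneys in order. Changed calls of such stress genes, and list counts that move by over 1.5 times without it, are given both ways below. Other list counts can shift by less without this mouse and are mostly given once.

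Injury changed most of the kidney's transcripts. By limma on log2(FPKM + 1), with p adjusted over all genes tested, 5066 genes were higher after injury (42.5%) and 3567 were lower (29.9%), so that 8633 passed (72.4%). The 3 injured values lay wholly outside the range of the 3 sham values for 8931 genes (74.9%). Among genes that passed, 1370 were at least 2-fold higher (11.5%) and 1186 at least 2-fold lower (9.94%). Beyond 4-fold the counts were 315 higher and 270 lower, beyond 8-fold 101 and 50, and beyond 32-fold 11 and 1. The median log2 fold change over all genes tested was 0.12. Every fold change and its standard error (SE) below is on this log2 scale, where genes of low FPKM understate their change. Each SE pools the spread within all 4 groups of the 12 libraries, so it can differ from the spread of the 6 values printed. Fitted on the 6 normoxic libraries alone, 4838 genes were higher and 3423 lower. With 72.4% of all genes called, a count of called members in a group of genes has meaning only beside these shares.

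**Figure D1:**
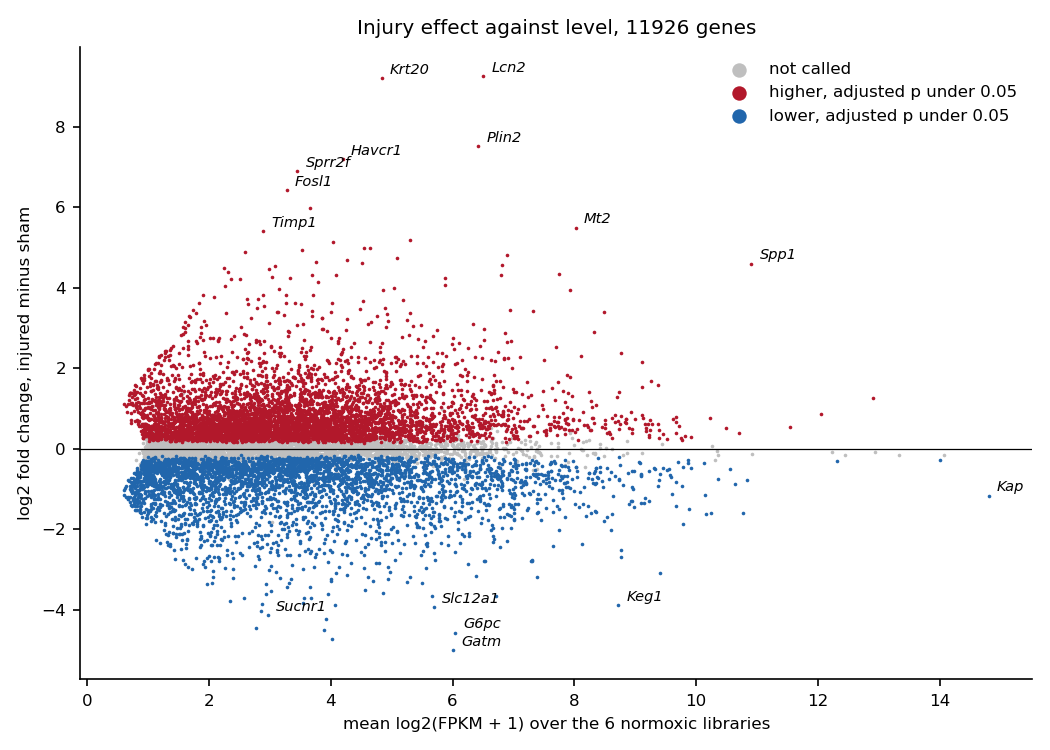
Injury effect of each of 11926 genes (vertical axis, log2 fold change of injured minus sham) against its mean log2(FPKM + 1) over the 6 normoxic libraries (horizontal axis). Red points are the 5066 genes higher and blue points the 3567 lower at an adjusted p under 0.05, and the largest increases reach further from 0 than the largest decreases.

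Lcn2 and Krt20 rose furthest. Lcn2, which encodes the iron-binding lipocalin 2 and lies on chromosome 2, 32384637 to 32387739 of GRCm38, was at 1.77, 3.2 and 3.18 FPKM in the sham kidneys and at 1557, 3009 and 2419 in the injured kidneys, a log2 fold change of 9.27 ± 0.27 (SE), adjusted p = 5e-10. Krt20, a keratin of urothelium and gut epithelium, went from 0.0761, 0.0584 and 0.403 to 561, 994 and 598 FPKM (9.21 ± 0.29 (SE), adjusted p = 7.32e-10). In both genes every injured kidney lay far above every sham kidney. Havcr1, kidney injury molecule 1, a receptor with which tubule cells take up dying cells, read 0.623, 0.519 and 0.4 FPKM in sham and 216, 106 and 470 in injured kidneys (7.20 ± 0.55 (SE), adjusted p = 2.98e-07). Its injured values spread widely and mouse 3 was highest, yet all were far above the sham values. Spp1, the secreted phosphoprotein osteopontin, was among the 10 most abundant transcripts after injury, with 386, 392 and 389 FPKM in sham and 9099, 8269 and 11210 in injured kidneys (4.60 ± 0.11 (SE), adjusted p = 2.99e-10). All 18 listed tubular injury markers were higher, and their median log2 fold change was 3.81, against 0.12 over all genes. Of these 18 genes 6 passed the filter through the injured libraries only and had to be higher, so the count and median are a description. Their summed FPKM was 612 to 647 in the sham and 14300 to 17900 in the injured kidneys. This list was drawn up from genes known to rise in this injury.

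Plin2, the coat protein of lipid droplets, ranked next, at 5.65, 5.73 and 4.76 FPKM in sham and 861, 1262 and 1427 in injured kidneys (7.51 ± 0.51 (SE), adjusted p = 1.21e-07). Metallothionein Mt2, a zinc-binding protein on chromosome 8, 94172618 to 94173567, went from 33.3, 40.3 and 39.7 to 1334, 2150 and 1832 FPKM (5.49 ± 0.22 (SE), adjusted p = 3.65e-09), and its neighbour in function Mt1 from 44.2, 49 and 47.6 to 707, 1420 and 906 (4.34 ± 0.21). Plaur, the urokinase receptor of the cell surface, was at 2.38, 2.92 and 4.36 FPKM in sham and 113, 132 and 145 in injured kidneys (4.98 ± 0.18 (SE), adjusted p = 2.07e-09). Timp1, a tissue inhibitor of metalloproteinases, was at 0.133, 0.16 and 0.126 and 56.5, 31.5 and 58.4 FPKM (5.40 ± 0.19 (SE), adjusted p = 1.94e-09). For none of these did a sham kidney come near an injured one. Also among the largest increases were the AP-1 subunit Fosl1 (6.43 ± 0.24), the epithelial 14-3-3 protein Sfn (5.18 ± 0.22), the aldo-keto reductase Akr1b8 (5.12 ± 0.22), the scaffold protein Akap12 (4.98 ± 0.29), the ERK phosphatase Dusp5 (4.93 ± 0.34), the glutathione transferase Gsta1 (4.88 ± 0.36) and Sprr2f.

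Sprr2f, a small proline-rich protein of cornified epithelium, had no read in any sham kidney and stood at 101, 119 and 138 FPKM in the injured kidneys. Against a floor of 3 reads over the 3 sham libraries, it was at least 2550-fold higher after injury. Vgf, a secreted neuropeptide precursor, was likewise at 0 in every sham kidney and at 25.4, 14.3 and 26.7 FPKM after injury, at least 3410-fold higher on the same floor. The interleukin 1 family member Il36a, at 0 in sham and at 14.3, 17.6 and 8.78 FPKM in injured kidneys, was at least 417-fold higher. In all, 40 genes lay under 0.1 FPKM in every sham kidney and at 1 or more in every injured kidney, and 18 did the opposite. Sprr2f and Gsta1 belong to families of near-identical genes, and the way reads shared by copies were counted was not stated.

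Gatm, Acmsd and G6pc, which encode enzymes, fell furthest. Gatm, which makes the creatine precursor guanidinoacetate in proximal tubule mitochondria and lies on chromosome 2, 122594473 to 122611277, was at 359.8, 368 and 366 FPKM in sham and at 14.3, 10.6 and 7.39 in injured kidneys (-5.00 ± 0.31 (SE), adjusted p = 5.91e-08). Acmsd, which steers tryptophan breakdown away from NAD, went from 80, 86.2 and 78.8 to 3.2, 2.14 and 1.37 FPKM (-4.71 ± 0.39 (SE), adjusted p = 5.83e-07). G6pc, the glucose-releasing phosphatase of gluconeogenesis, went from 335, 318 and 304 to 9.63, 16.2 and 12.6 FPKM (-4.56 ± 0.21 (SE), adjusted p = 9.45e-09). In each of the 3 genes every injured kidney lay far below every sham kidney. Slc12a1, the sodium-potassium-chloride carrier that furosemide blocks, went from 194, 198 and 207 to 10.7, 10.3 and 16.7 FPKM (-3.92 ± 0.20 (SE), adjusted p = 1.49e-08). Keg1, of the glycine acyltransferase family, which was among the abundant transcripts of sham kidney, went from 1883, 1410 and 1566 to 197, 66.9 and 98.2 FPKM (-3.87 ± 0.31 (SE), adjusted p = 4.34e-07). Its groups lay wide apart. The other genes among the 15 largest decreases were the steroid dehydrogenase Hsd3b2 (-4.51 ± 0.42), the hydroxylysine kinase Hykk (-4.23 ± 0.17), the succinate receptor Sucnr1 (-4.12 ± 0.31), the lactate carrier Slc5a12 (-3.89 ± 0.26), the lectin-like Clec2h (-3.86 ± 0.29), the cholecystokinin receptor Cckar (-3.82 ± 0.27), the acetyltransferase family member Nat8f6 (-3.71 ± 0.21), the growth factor Egf (-3.65 ± 0.32), the tight junction protein Cldn10 (-3.65 ± 0.20) and Nlrp6 (-3.60 ± 0.14).

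**Figure D2:**
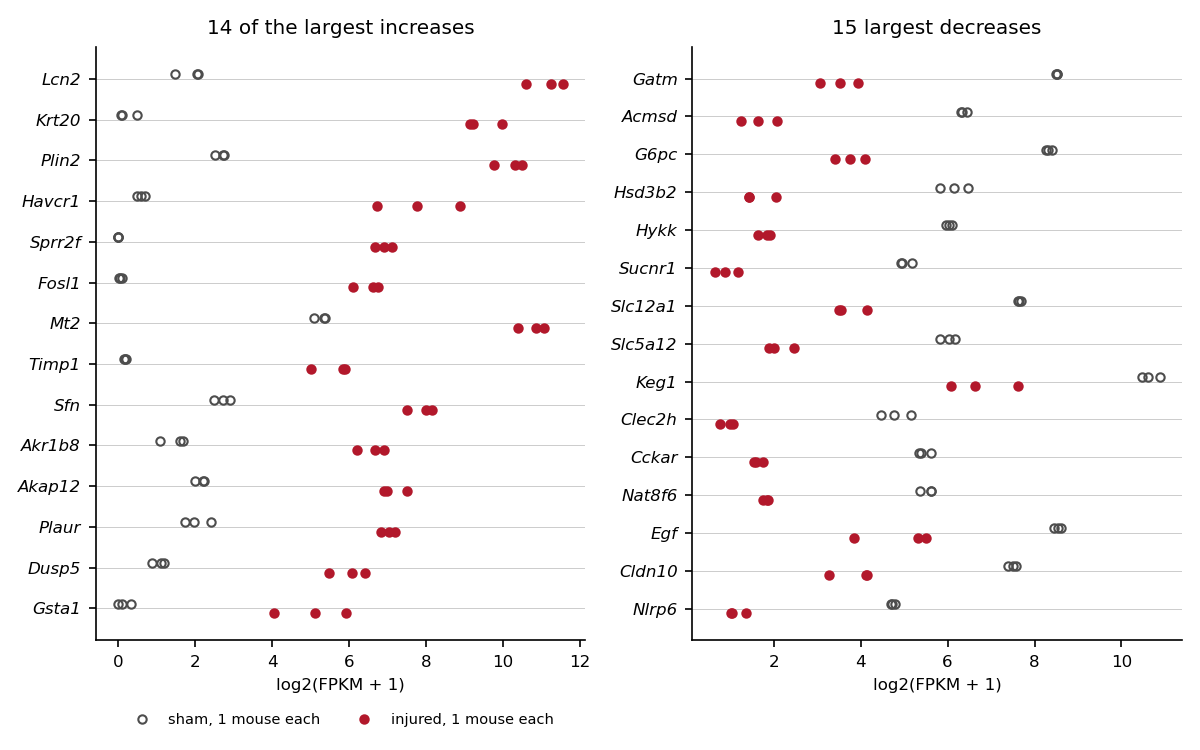
Level of 14 of the 15 genes with the largest increase (left) and of the 15 with the largest decrease (right) in each of the 6 normoxic kidneys, as log2(FPKM + 1) on the horizontal axis. Open circles are the 3 sham mice and red circles the 3 injured mice, and the groups do not overlap in any of the genes drawn, which the choice of these genes required.

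Promoter sequences of RefSeq (GRCm38.p6, 250 bases before to 50 after the start site) were matched by symbol to 9455 of the genes tested, of which 1881 had more than 1 promoter, and a gene counted once if any of them held a motif. The AP-1 site TGANTCA, searched on both strands, was in the promoters of 36 of the 200 genes with the largest increase (18%), in 14 of the 200 with the largest decrease (7.0%) and in 588 of all 9455 (6.2%). The C/EBP site TTGCNNAA on both strands was in 16%, 8.5% and 10.1% of the same sets. The NRF2 site TGACNNNGC, on both strands like those that follow, was in 22%, 12% and 17%. For 2 forms of the NF-kB site, searched on both strands, the shares were 36.0%, 24.0% and 31.0%. The cyclic AMP response element TGACGTCA was in 4.5%, 1.5% and 3.4%, the E-box CACGTG in 10%, 10.5% and 11.9%, and the hypoxia response core ACGTG, which lies within that E-box, in 26.5%, 22% and 29.4%. TATAAA on the gene's strand was in 17.5% of the most raised and 12.5% of the most lowered genes, against 5.5% of all. These shares describe letters in a window and were not tested, and a match is not a bound site.

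The 200 bases before the start site are shown for 4 of the genes above that hold an AP-1 site, 3 that rose and Sucnr1, which fell. Capitals mark the AP-1 site TGANTCA and TATAAA on the gene's strand, and the sequences are RefSeq's on GRCm38.p6, written 5′ to 3′ on the gene's strand.
Sprr2f, chr3:92364987-92365186, plus strand: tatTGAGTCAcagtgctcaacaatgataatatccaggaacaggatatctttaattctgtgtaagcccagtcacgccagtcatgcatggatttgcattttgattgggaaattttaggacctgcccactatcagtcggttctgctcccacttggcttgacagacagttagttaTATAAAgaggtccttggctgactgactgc
Mt2, chr8:94172418-94172617, plus strand: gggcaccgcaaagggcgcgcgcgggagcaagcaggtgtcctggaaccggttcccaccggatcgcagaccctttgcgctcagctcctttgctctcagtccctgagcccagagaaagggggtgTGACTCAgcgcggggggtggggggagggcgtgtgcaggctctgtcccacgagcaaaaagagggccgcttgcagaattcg
Plaur, chr7:24462283-24462482, plus strand: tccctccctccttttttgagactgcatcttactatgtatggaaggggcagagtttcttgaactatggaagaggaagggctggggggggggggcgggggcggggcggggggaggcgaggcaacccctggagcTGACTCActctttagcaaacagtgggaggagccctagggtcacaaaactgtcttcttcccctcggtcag
Sucnr1, chr3:60081669-60081868, plus strand: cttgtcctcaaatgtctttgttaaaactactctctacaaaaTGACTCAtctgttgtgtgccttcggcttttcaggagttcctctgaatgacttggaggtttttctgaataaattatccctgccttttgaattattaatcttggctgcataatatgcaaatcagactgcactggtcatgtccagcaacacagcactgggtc
The AP-1 letters occur in genes of both directions, as Sucnr1 shows beside Sprr2f, Mt2 and Plaur. Among the genes of largest change, Havcr1, which rose, and Clec2h and Nlrp6, which fell, hold them too.

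Markers of the podocyte, proximal tubule, thick ascending limb, distal tubule and collecting duct were checked against the kidney label, and all of these lists were expressed in the sham kidneys. The proximal tubule, which reabsorbs most of the filtrate, lost transporter transcripts. Of 25 carriers and channels on its list, all tested, 23 were lower and none higher, and the median log2 fold change was -1.48. Slc34a1, the phosphate carrier, was at 2153, 2090 and 2018 FPKM in sham and 677, 836 and 594 in injured kidneys (-1.58 ± 0.11 (SE), adjusted p = 1.88e-07). The water channel Aqp1 went from 481, 435 and 476 to 75.3, 92.3 and 92.9 FPKM (-2.41 ± 0.11 (SE), adjusted p = 8.03e-09). Smaller was the change in Slc5a2, the glucose carrier of the early proximal tubule, from 299, 289 and 263 to 159.9, 198 and 160 FPKM (-0.72 ± 0.09 (SE), adjusted p = 1.33e-05). The glucose carrier Slc2a2 and the sulphate carrier Slc26a1 were lowest in injured mouse 2, at 17.1, 3.2 and 15.4 and 10.9, 3.36 and 10.3 FPKM over the 3 injured kidneys in order. Slc22a6, the carrier of organic anions, was at 339.6, 355 and 341 and 132, 124 and 93.3 FPKM (-1.57 ± 0.12). Of 7 genes of proximal tubule endocytosis 4 were lower, among them the receptors Lrp2 (-1.96 ± 0.10) and Cubn (-1.63 ± 0.11). Dab2, the adaptor that links Lrp2 to clathrin, went the other way, from 62.7, 61.7 and 61.5 to 128, 158 and 140.5 FPKM (1.18 ± 0.16 (SE), adjusted p = 2.79e-05). Ocrl, a phosphatase of endosomes, was also called higher, by 0.22, and this call was lost in 8 of 21 alternative analyses, so that 1 gene of the list was higher without sham mouse 1 or 3 or injured mouse 1.

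The thick ascending limb had the lowest median of the 6 tubule lists. Of its 12 listed genes 11 were lower and none higher, and the median log2 fold change was -2.06. Beside Slc12a1, the apical potassium channel Kcnj1 was at 69.9, 68.4 and 73 FPKM in sham and 15.7, 5.38 and 16.5 in injured kidneys (-2.54 ± 0.29 (SE), adjusted p = 7.92e-06). Cldn10, which forms a cation pore between the cells, was at 181, 166 and 189.7 and 16.3, 8.64 and 16.7 FPKM (-3.65), and the phosphatase inhibitor Ppp1r1b at 38.9, 37.1 and 45.5 and 2.5, 1.85 and 4.58 (-3.44). Egf, a growth factor made in this segment and the distal tubule, was at 389.5, 374 and 346 in sham and 13.3, 44.4 and 38.8 in injured kidneys, lowest in mouse 1. The exception was Umod, the most abundant protein of normal urine, made in the same cells. It was at 1465, 1299 and 1394 FPKM in sham and 1059, 1201 and 1506 in injured kidneys, and the 2 groups overlapped (-0.16 ± 0.12 (SE), adjusted p = 0.241).

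Farther along the nephron, 7 of 10 genes of the distal convoluted and connecting tubule were lower, with a median of -0.83. Calb1, a calcium-binding protein of these cells, was at 89.6, 91.9 and 89.5 FPKM in sham and 6.77, 11.7 and 12.1 in injured kidneys (-3.07 ± 0.22 (SE), adjusted p = 1.84e-07). Kl, the co-receptor klotho, was at 159, 153 and 154 and 30.2, 30.3 and 30.1 FPKM, with almost no spread within either group (-2.33 ± 0.09 (SE), adjusted p = 2.83e-09). The sodium chloride carrier Slc12a3 changed less, from 179, 158 and 142 to 89, 82.1 and 117 FPKM (-0.74 ± 0.14 (SE), adjusted p = 0.000365), and the magnesium channel Trpm6 did not pass (-0.20 ± 0.11 (SE), adjusted p = 0.122). Of 9 principal cell genes of the collecting duct 8 were lower. Hsd11b2, which shields the mineralocorticoid receptor from glucocorticoids, was at 93.3, 83.4 and 76.3 and 9.51, 9.97 and 10.9 FPKM (-2.94 ± 0.14 (SE), adjusted p = 1.1e-08), whereas the vasopressin-regulated water channel Aqp2 was at 150.4, 208 and 218 and 129.7, 127 and 139.5 FPKM and did not pass (-0.52 ± 0.26 (SE), adjusted p = 0.0879). Of 10 intercalated cell genes 8 were lower. The ammonia channel Rhcg went from 53.8, 45.3 and 47.6 to 4.88, 2.29 and 6.06 FPKM (-3.27 ± 0.22 (SE), adjusted p = 1.09e-07) and the bicarbonate exchanger Slc4a1 from 13.2, 11 and 12.1 to 0.24, 0.348 and 0.296 FPKM (-3.34 ± 0.20 (SE), adjusted p = 5.5e-08). Slc4a1 is also a red blood cell protein, and it passed the filter through the sham libraries only. Of 6 red blood cell genes tested it was the one called, and the median of the list was -0.26, or 0.01 without injured mouse 3. Haemoglobin Hbb-bs was at 374, 323 and 462 FPKM in sham and 351, 473 and 232 in injured kidneys, and the part of blood in the fall of Slc4a1 was not tested.

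Transcription factors of the nephron moved in both directions. Of 18 on the list, 11 were lower and 2 higher. Hnf4a, which drives much of the proximal tubule program, was at 225, 194 and 222 FPKM in sham and 57.9, 48.9 and 36.8 in injured kidneys (-2.15 ± 0.15 (SE), adjusted p = 1.68e-07). Maf (-1.90 ± 0.20) and Esrra, a nuclear receptor of mitochondrial genes (-1.43 ± 0.15), fell as well. Pax8, which specifies the renal lineage in the embryo, was higher, at 34.9, 36.2 and 36.8 FPKM in sham and 114, 182 and 147 in injured kidneys (1.99 ± 0.14 (SE), adjusted p = 1.73e-07), as was Grhl2, a factor of distal nephron epithelium (0.71 ± 0.10).

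Glomerular and vascular lists held genes of both directions. Of 10 podocyte genes 4 were lower and 3 higher, with a median of -0.16. The slit diaphragm protein Nphs1 was lower (-0.47 ± 0.11), and Synpo, an actin-binding protein, was higher (0.81 ± 0.09). Of 14 endothelial genes 8 were higher and 2 lower. Nos3, endothelial nitric oxide synthase, was at 2.48, 2.45 and 2.24 FPKM in sham and 12, 15.4 and 14.1 in injured kidneys (2.12 ± 0.15 (SE), adjusted p = 1.55e-07), and the junction protein Cdh5 at 10.5, 12 and 9.03 and 24.2, 33.1 and 30.8 (1.40 ± 0.14 (SE), adjusted p = 3.11e-06). Tek, the angiopoietin receptor, fell (-1.10 ± 0.21 (SE), adjusted p = 0.000486), and so did Ehd3, a marker of glomerular endothelium (-0.78 ± 0.12 (SE), adjusted p = 0.000116). Under quantile normalization 7 endothelial genes were higher and 4 lower. Among 9 genes of fibroblasts and pericytes 3 were higher, among them Pdgfrb (0.87 ± 0.11), and 2 lower. Of 6 smooth muscle genes 4 were higher, led by Tagln, an actin-binding protein, at 24.4, 31.5 and 39.1 FPKM in sham and 191, 122 and 119.8 in injured kidneys (2.14 ± 0.19 (SE), adjusted p = 1.04e-06), while the smooth muscle myosin Myh11 fell (-0.54 ± 0.14 (SE), adjusted p = 0.00441).

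**Figure D3:**
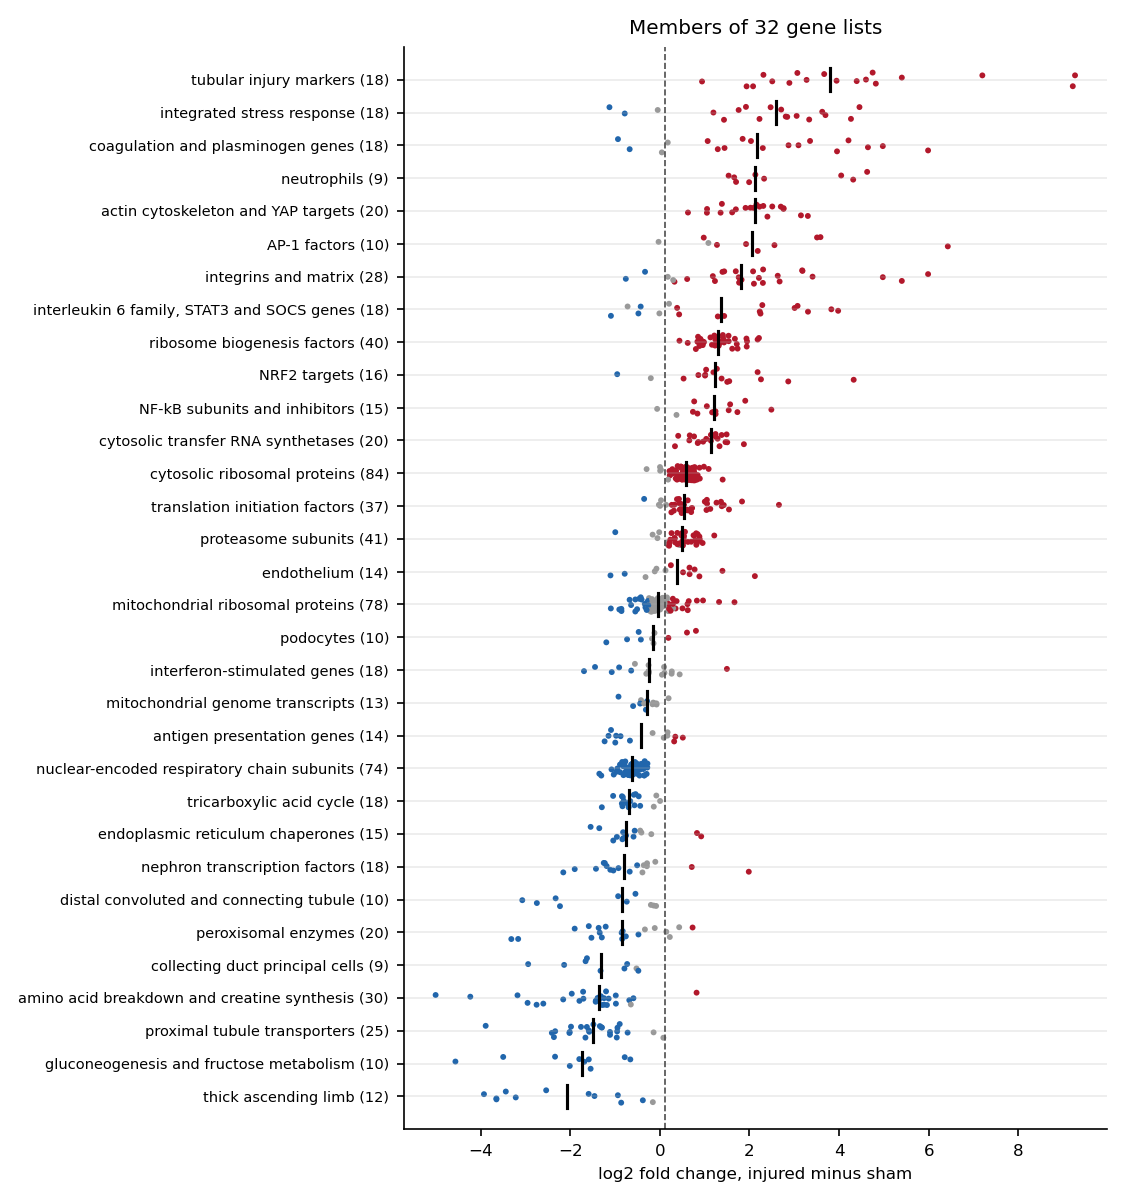
Log2 fold change of injured minus sham (horizontal axis) for each tested member of 32 gene lists (rows, number tested in brackets, ordered by median). Points are genes, red where higher, blue where lower and grey where not called, black bars are list medians and the dashed line is the median of all genes tested, 0.12. Most lists of stress, injury and translation genes lie to the right and lists of nephron segments and metabolism to the left. The endoplasmic reticulum chaperones are a stress list that lies to the left, with a median of -0.75.

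Genes of glucose synthesis and amino acid breakdown were lower. All 10 genes of gluconeogenesis and fructose use were lower, with a median log2 fold change of -1.74, and their summed FPKM went from 6110 to 6310 in the sham kidneys to 1740 to 2210 in the injured kidneys. Fbp1, which removes a phosphate from fructose bisphosphate, was at 653, 658 and 684 and 177, 234 and 167 FPKM (-1.80 ± 0.11 (SE), adjusted p = 6.99e-08). Slc37a4, which brings glucose phosphate to G6pc, was at 108, 102 and 111 and 21.8, 19.2 and 20.2 FPKM (-2.34 ± 0.09 (SE), adjusted p = 1.94e-09). Pck1, the first committed enzyme of the pathway, was at 446, 569 and 657 and 179, 276 and 134 FPKM (-1.54 ± 0.29 (SE), adjusted p = 0.000457). Of 30 genes of amino acid breakdown and creatine synthesis, 28 were lower and 24 of them at least 2-fold, with a median of -1.35. Only the glutamate dehydrogenase gene Glud1 was higher in that list, at 123, 134 and 122 FPKM in sham and 206, 284 and 190.3 in injured kidneys (0.82 ± 0.14 (SE), adjusted p = 0.00028).

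Most genes of NAD synthesis and its side branch were lower, and the salvage enzyme was not called. Of 11 genes tested 8 were lower and 1 higher, and the 8 include Acmsd, which draws tryptophan away from NAD. Qprt, which turns quinolinate into a nicotinate nucleotide, was at 70, 68.5 and 65.9 FPKM in sham and 22.9, 14.8 and 11.6 in injured kidneys (-2.04 ± 0.22 (SE), adjusted p = 4.93e-06). Kmo (-2.31 ± 0.13) and Afmid (-1.94 ± 0.10), 2 earlier enzymes of the route, fell as well. Nampt, the salvage enzyme, was at 22.6, 23.9 and 23.6 and 27.5, 23.3 and 22.2 FPKM (0.05 ± 0.10 (SE), adjusted p = 0.65). Nmnat3, the mitochondrial adenylyltransferase, was the gene that rose (0.53 ± 0.13 (SE), adjusted p = 0.0025).

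Fat oxidation showed 2 directions. Of 21 genes 14 were lower and 4 higher, with a median of -0.45. Acadm, the medium-chain dehydrogenase, went from 446, 446 and 442 to 156, 198 and 136 FPKM (-1.45 ± 0.11 (SE), adjusted p = 3.14e-07), and Acat1, the mitochondrial thiolase, from 294, 279 and 298 to 101, 98.1 and 95.1 (-1.56 ± 0.07 (SE), adjusted p = 8.55e-09). Genes that carry long-chain fat into mitochondria did not follow. Cpt1a, at 95.6, 91.1 and 85.3 FPKM in sham and 106, 124 and 102 in injured kidneys, was not called (0.28 ± 0.14 (SE), adjusted p = 0.0774), and Cpt2 (0.55 ± 0.14) and the acylcarnitine carrier Slc25a20 (0.40 ± 0.13) were higher. The call of Slc25a20 was lost under quantile normalization (0.31, adjusted p = 0.0574). Only 2 genes of this list were higher without sham mouse 1 or 3 or injured mouse 1 or 2, without the filter on low values and under quantile normalization. Of 20 peroxisomal genes 14 were lower and 1 was higher, or 3 without injured mouse 3, with Hao2, a hydroxyacid oxidase, at 110.3, 123 and 125 and 7.41, 14.5 and 12.6 FPKM (-3.31 ± 0.28 (SE), adjusted p = 7.32e-07), and Amacr, which prepares branched fat for oxidation, at 245, 255 and 246 and 30.8, 24.2 and 26.1 (-3.16 ± 0.20 (SE), adjusted p = 6.8e-08). Ehhadh, of the peroxisomal oxidation spiral, was at 294, 267 and 272 and 285, 549 and 216 FPKM, highest in injured mouse 2, and was not called (0.22 ± 0.38 (SE), adjusted p = 0.613).

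Every one of 74 nuclear genes for respiratory chain subunits was lower after injury, with no overlap between the groups in any of them. The changes shared a direction and ran from -1.35 to -0.28 with a median of -0.62, and 4 genes were at least 2-fold lower. Of all genes tested 29.9% were lower, and in 74.9% the groups did not overlap. Ndufs1 of complex I was at 75.7, 77.5 and 82.6 FPKM in sham and 37.8, 34.2 and 38 in injured kidneys (-1.08 ± 0.07 (SE), adjusted p = 1.19e-07), Uqcrc1 of complex III at 266, 287 and 276 and 225, 207 and 176 (-0.45 ± 0.09 (SE), adjusted p = 0.000833) and Cox5a of complex IV at 76.9, 76.4 and 80.3 and 66.2, 59.9 and 56.6 (-0.35 ± 0.08 (SE), adjusted p = 0.00164). Of 18 genes of the tricarboxylic acid cycle 15 were lower and none higher. The isocitrate dehydrogenase Idh2 was at 87.8, 84.3 and 87.3 and 32.8, 34.1 and 37.3 FPKM (-1.29 ± 0.07 (SE), adjusted p = 1.71e-08), while citrate synthase, Cs, was at 94.4, 103 and 94.1 and 106, 92.1 and 94.5 (0.01 ± 0.07 (SE), adjusted p = 0.95). Of the transcripts of the mitochondrial genome itself 5 of 13 were lower, with a median of -0.28. COX1 was at 17710, 18390 and 18390 FPKM in sham and 14680, 17550 and 17110 in injured kidneys (-0.15 ± 0.09 (SE), adjusted p = 0.174), and CYTB at 17950, 17860 and 18760 and 13580, 16100 and 15270 (-0.28 ± 0.08 (SE), adjusted p = 0.00687). The count was 8 of 13 under quantile normalization and 2 of 13 without the filter on low values, and the call of CYTB was lost under both. Mitochondrial ribosomal proteins had no common direction, with 16 of 78 higher and 21 lower and a median of -0.05. Without injured mouse 1 also 10 were higher. After rescaling by median ratios 10 of these 78 were higher and 32 lower, and after quantile normalization 12 and 35. Mrps18b (1.67 ± 0.07) rose most and Mrps36 (-1.09 ± 0.14) fell most.

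Glycolytic genes were not raised as a group, with 7 of 17 higher, 3 lower and a median of 0.11. Of the 17 genes 2, Hk2 among them, passed the filter through the injured libraries only. The glucose carrier Slc2a1, of most cells, was at 21.1, 22.2 and 19.7 FPKM in sham and 81.3, 139.9 and 102 in injured kidneys (2.27 ± 0.15 (SE), adjusted p = 9.07e-08). Hexokinase Hk2 went from 0.0543, 0.133 and 0.121 to 3.36, 4.87 and 4.87 FPKM (2.27 ± 0.12 (SE), adjusted p = 1.57e-08), while Hk1 was not called (0.07 ± 0.10 (SE), adjusted p = 0.522). Pfkm, the muscle-type phosphofructokinase, fell from 15.8, 17.1 and 15 to 4.84, 2.99 and 3.54 FPKM (-1.84 ± 0.16 (SE), adjusted p = 8.03e-07) and Pfkp, the platelet type, rose from 10.8, 13.8 and 11.1 to 20.3, 16.1 and 19.9 (0.62 ± 0.11 (SE), adjusted p = 0.000314). Targets of hypoxia-inducible factors were likewise divided, with 7 of 18 higher and 6 lower and a median of -0.01. Adm, the vasodilator adrenomedullin, was at 3.55, 4.88 and 4.16 FPKM in sham and 46.1, 35.4 and 38.2 in injured kidneys (2.98 ± 0.16 (SE), adjusted p = 2.48e-08), and the lipid droplet protein Hilpda rose too (2.14 ± 0.24). Vegfa, the vascular growth factor, fell from 57, 49 and 58.6 to 36.2, 32.4 and 45.1 FPKM (-0.53 ± 0.12 (SE), adjusted p = 0.0016), and Car9, a carbonic anhydrase, fell with it (-0.67 ± 0.15 (SE), adjusted p = 0.00127). Egln3, the oxygen-sensing hydroxylase, was not called (-0.21 ± 0.15 (SE), adjusted p = 0.24).

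Lipid droplet and sterol genes moved apart. Of 12 lipid droplet genes 8 were higher and 3 lower. Beside Plin2, the lipase Pnpla2 was at 41.6, 42.2 and 40.1 FPKM in sham and 68.1, 176 and 68 in injured kidneys, highest in mouse 2 (1.16 ± 0.29 (SE), adjusted p = 0.00344), and Lpin1, which makes diacylglycerol, fell (-1.57 ± 0.17 (SE), adjusted p = 4.52e-06). Of 19 genes of cholesterol synthesis and uptake 10 were lower and 5 higher. Idi1, an isomerase of the pathway, was at 21.1, 19.7 and 19.1 and 2.57, 2.04 and 3.19 FPKM (-2.56 ± 0.24 (SE), adjusted p = 1.85e-06), and Hmgcs1, which starts it, at 113, 91 and 103 and 25.7, 24.7 and 25.9 (-1.96 ± 0.18 (SE), adjusted p = 1.18e-06). Msmo1, a later enzyme of the pathway, was higher (1.35 ± 0.16 (SE), adjusted p = 1.02e-05). Fat cell markers also differed between the groups. Of 7 adipose genes 3 were tested and 2 were higher, Cidec, also a lipid droplet gene, and Fabp4, also made by endothelium, and the summed list went from 41.7 to 66.2 FPKM in sham to 102 to 131 in injured kidneys. The defining marker Adipoq was under the filter, at 0.024, 0.647 and 1.39 FPKM in sham and 0.024, 0.0243 and 0.428 in injured kidneys, and the part of fat tissue in the results was not tested.

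Drug-metabolizing genes were mixed. Of 32 cytochrome P450 genes tested 17 were lower and 9 higher. Cyp2e1 was at 912, 840 and 962 FPKM in sham and 427, 586 and 443 in injured kidneys (-0.91 ± 0.20 (SE), adjusted p = 0.00129), Cyp7b1, an oxysterol hydroxylase, at 81.4, 79.2 and 64.4 and 10, 24.8 and 12.4 (-2.27 ± 0.28 (SE), adjusted p = 1.38e-05), and Cyp24a1, which inactivates vitamin D, at 35.2, 58.3 and 54.4 and 22.3, 4.25 and 10.6 (-2.13 ± 0.42 (SE), adjusted p = 0.000668). Of 20 glutathione transferase genes 8 were higher and 8 lower. Gsta1 and Gsto1 (1.60 ± 0.07) rose and Gstk1, of mitochondria and peroxisomes, fell (-1.42 ± 0.10).

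Stress-response transcription rose on several fronts. Of 10 AP-1 genes tested 8 were higher and none lower, and the median was 2.05. Of the 10, 1 passed the filter through the injured libraries only, Fosl1. Fosl1, on chromosome 19, 5447698 to 5455938, was at 0.0174, 0.0334 and 0.0821 FPKM in sham and 67.6, 97.5 and 106 in injured kidneys (6.43 ± 0.24 (SE), adjusted p = 2.17e-09). Atf3, a stress-induced partner of Jun, was at 0.659, 0.763 and 1.02 and 16.2, 23.4 and 23.4 FPKM (3.58 ± 0.18 (SE), adjusted p = 1.26e-08), and Jun at 9.49, 11.9 and 24.5 and 47, 65.5 and 58 (1.92 ± 0.39 (SE), adjusted p = 0.000804). Without sham mouse 3 the log2 fold change of Jun was 2.30. Fos itself was at 2.11, 0.985 and 14.5 FPKM in sham and 5.9, 10.4 and 10.6 in injured kidneys and did not pass (1.08 ± 0.71 (SE), adjusted p = 0.184), and without sham mouse 3 its log2 fold change was 1.97 with an adjusted p of 0.00953. The same held for Egr1, at 5.7, 7.35 and 46.3 and 15.6, 39.6 and 34.2 FPKM (1.05 ± 0.76 (SE), adjusted p = 0.226), which reached 1.94 with an adjusted p of 0.0197 without that mouse. Of 14 immediate early genes 12 were higher, and 14 without sham mouse 3. Myc, which drives growth genes, was at 2.53, 3.68 and 1.14 FPKM in sham and 54.5, 60.8 and 56.5 in injured kidneys (4.15 ± 0.22 (SE), adjusted p = 2.16e-08), and Klf6 at 5.66, 5.61 and 5.16 and 56, 119.6 and 80.2 (3.67 ± 0.23 (SE), adjusted p = 6.5e-08). Of 14 genes for ERK phosphatases and Sprouty proteins, which curb the ERK pathway that induces them, 11 were higher and none lower, and 3 of the 14 passed the filter through the injured libraries only. Dusp5 led them, at 0.833, 1.19 and 1.28 FPKM in sham and 44, 84.2 and 66.2 in injured kidneys. Ligands of the EGF receptor changed in opposite ways, and Areg passed the filter through the injured libraries only. Areg, amphiregulin, was at 0.0244, 0.0468 and 0.0231 FPKM in sham and 8.73, 7.48 and 11.1 in injured kidneys (3.27 ± 0.30 (SE), adjusted p = 1.31e-06), and Hbegf at 5.53, 6.42 and 10 and 26.6, 41.6 and 37.7 (2.14 ± 0.24 (SE), adjusted p = 8.07e-06), while Egf fell as above.

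Antioxidant genes controlled by NRF2 were raised, with 14 of 16 higher and a median of 1.23. Srxn1, which repairs peroxiredoxins, was at 23.9, 24.3 and 22.9 FPKM in sham and 454, 529.5 and 503 in injured kidneys (4.33 ± 0.11 (SE), adjusted p = 2.99e-10). Hmox1, haem oxygenase 1, was at 38.7, 27.6 and 68.8 and 296, 281 and 366 FPKM (2.87 ± 0.28 (SE), adjusted p = 2.21e-06, or 3.22 without sham mouse 3), and the thioredoxin reductase Txnrd1 at 44.8, 51.4 and 47.1 and 208, 220.4 and 232 (2.18 ± 0.11 (SE), adjusted p = 1.35e-08). Me1, malic enzyme, went the other way, from 144, 162 and 154 to 83.8, 75.8 and 77.1 FPKM (-0.95 ± 0.08 (SE), adjusted p = 5.79e-07). The ferritin genes were among the 10 most abundant transcripts in both groups. Fth1, the heavy chain that oxidizes iron, was at 4791, 5070 and 4882 FPKM in sham and 13110, 12660 and 10090 in injured kidneys (1.27 ± 0.10 (SE), adjusted p = 2.8e-07), and Ftl1, the light chain, at 3167, 2911 and 3344 and 7009, 4706 and 5590 (0.86 ± 0.12 (SE), adjusted p = 5.16e-05), a call that was lost under quantile normalization.

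The integrated stress response, which adapts cells to amino acid lack or unfolded protein through ATF4, was raised in 15 of 18 genes tested, with a median of 2.59, and 3 of the 18 passed the filter through the injured libraries only. Atf4 was at 50.2, 45.7 and 62 FPKM in sham and 212, 274 and 261 in injured kidneys (2.22 ± 0.14 (SE), adjusted p = 5.64e-08). Its targets Trib3, a pseudokinase, went from 0.751, 0.666 and 0.655 to 34.8, 35.4 and 38.2 FPKM (4.46 ± 0.34 (SE), adjusted p = 2.86e-07), Asns, asparagine synthetase, from 1.49, 1.94 and 1.82 to 35.1, 29.1 and 34.4 (3.62 ± 0.14 (SE), adjusted p = 2.07e-09) and Chac1, which degrades glutathione, from 1.15, 0.653 and 0.839 to 25.5, 45.7 and 36.6 (4.26 ± 0.29 (SE), adjusted p = 1.24e-07). Shmt2 (-1.12 ± 0.10) and Vldlr (-0.78 ± 0.10) were lower.

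Chaperones of the endoplasmic reticulum, which another arm of the unfolded protein response controls, did not follow. Of 15 genes 10 were lower and 2 higher, with a median of -0.75. Hsp90b1 was at 209, 221 and 255 FPKM in sham and 96.9, 85.9 and 161 in injured kidneys (-1.04 ± 0.19 (SE), adjusted p = 0.00036), Calr, which folds glycoproteins, at 482, 495 and 499 and 258, 190.1 and 329 (-0.96 ± 0.16 (SE), adjusted p = 0.000151), and Herpud1 at 144, 125 and 169.6 and 35.5, 54.3 and 61.1 (-1.54 ± 0.19 (SE), adjusted p = 1.45e-05). Hspa5, the master chaperone of this compartment, was at 322, 286 and 413 and 191, 228 and 351 FPKM and did not pass (-0.44 ± 0.21 (SE), adjusted p = 0.084). Injured mouse 3 was the highest injured kidney for each of these 4 genes, and without it 12 of the 15 were lower. The 2 that rose were Xbp1, the transcription factor of that arm (0.92 ± 0.17 (SE), adjusted p = 0.000443), and Dnajb9 (0.83 ± 0.17 (SE), adjusted p = 0.000747). Cytosolic heat shock genes gave 4 higher and 5 lower of 16. Without sham mouse 3, whose heat shock transcripts were high, 9 were higher and 2 lower, and 3 were lower without sham mouse 1 and 2 without injured mouse 2. Hspb1, a small heat shock protein, was at 25.2, 22.6 and 54.5 FPKM in sham and 218, 278 and 273 in injured kidneys (2.98 ± 0.29 (SE), adjusted p = 2.45e-06), and without sham mouse 3 its log2 fold change was 3.36. Hspa1a, which did not pass (1.21 ± 0.53 (SE), adjusted p = 0.0575), reached 1.84 with an adjusted p of 0.00326 without that mouse. With the replicate number as a block in the fit, the adjusted p of Hspa1a by limma was 0.0078.

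Counts for listed genes of growth arrest and death stand beside the 42.5% of all genes that were higher. Of 14 targets of p53 tested 11 were higher and 1 lower. Cdkn1a, which halts the cell cycle, was at 4.7, 5.48 and 6.64 FPKM in sham and 130.1, 248 and 167 in injured kidneys (4.75 ± 0.28 (SE), adjusted p = 4.03e-08), and Mdm2, which degrades p53, changed less (0.85 ± 0.11 (SE), adjusted p = 2.3e-05). Among 12 genes of necroptosis, pyroptosis and caspases 9 were higher, but 4 of the 12, Mlkl and Ripk3 among them, passed the filter through the injured libraries only and had to be higher. With a filter at an FPKM of 5, 3 genes of this list were higher. Mlkl, which ruptures the membrane in necroptosis, was at 0.414, 0.272 and 0.401 FPKM in sham and 10.3, 6.12 and 7.29 in injured kidneys (2.68 ± 0.17 (SE), adjusted p = 6.21e-08), and its activating kinase Ripk3 at 0.377, 0.217 and 0.257 and 3.02, 2.66 and 3.95 (1.70 ± 0.12 (SE), adjusted p = 2.04e-07). Of 12 ferroptosis genes 7 were higher and 3 lower, but 3 of the 12 passed through the injured libraries only and had to be higher. With a filter at an FPKM of 5, 4 ferroptosis genes were higher, so the count is a description. Acsl4, which loads membranes with oxidizable fat, was at 4.01, 5.01 and 4.15 and 23.9, 37.8 and 25.6 FPKM (2.46 ± 0.18 (SE), adjusted p = 2.51e-07), and Gpx4, which reduces lipid peroxides, at 582, 619 and 612 and 515, 459.8 and 457 (-0.34 ± 0.08 (SE), adjusted p = 0.00298). Cell cycle genes changed little. Of 20 on the list 10 were tested and 5 were higher, or 3 without sham mouse 1 or injured mouse 1, and 2 were lower without the latter. Mki67, which marks dividing cells, was under the filter in both groups, at 0.277, 0.302 and 0.339 FPKM in sham and 0.127, 0.0495 and 0.103 in injured kidneys, whereas Pcna, the sliding clamp of replication and repair, was at 26.1, 31.4 and 30.9 and 59.5, 53 and 61.7 (0.96 ± 0.09 (SE), adjusted p = 1.5e-06).

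Most listed genes of cytosolic translation and of the proteasome were higher. All 40 ribosome biogenesis factors were higher, with a median of 1.29 and no overlap between groups in any. Of all genes tested, 42.5% were higher and 74.9% had no overlap. Ncl, nucleolin, was at 18.7, 18.4 and 18.5 FPKM in sham and 66, 61.1 and 62.6 in injured kidneys (1.72 ± 0.06 (SE), adjusted p = 1.66e-09), and the nucleolar protein Nop58 at 7.31, 6.66 and 7.88 and 38.2, 32.3 and 42.1 (2.21 ± 0.13 (SE), adjusted p = 3.69e-08). Of 84 cytosolic ribosomal proteins 78 were higher and none lower, by a smaller median of 0.59. Rpl3 was at 309, 283 and 313 FPKM in sham and 562, 474 and 600.1 in injured kidneys (0.84 ± 0.10 (SE), adjusted p = 8.61e-06). Their summed FPKM was 24700 to 27600 in the sham and 34300 to 41700 in the injured kidneys. Many ribosomal protein genes have processed copies elsewhere in the genome, and the treatment of reads shared with them was not stated.

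All 20 cytosolic transfer RNA synthetases were higher, with a median of 1.14, and Gars, of glycine, was at 23.4, 26.4 and 23.7 and 94.1, 91.7 and 91.4 FPKM (1.88 ± 0.07 (SE), adjusted p = 2.07e-09). Of 37 translation initiation factors 32 were higher. Eif4a1, the helicase that opens messenger RNA, was at 124, 117 and 129.7 FPKM in sham and 436, 433 and 458 in injured kidneys (1.83 ± 0.08 (SE), adjusted p = 4.36e-09), and Eif6, which keeps ribosomal subunits apart, at 45, 49.5 and 44.6 and 321, 285 and 288 (2.66 ± 0.10 (SE), adjusted p = 2.02e-09). Eif4g3 was the one that fell (-0.35 ± 0.11 (SE), adjusted p = 0.0105). Of 41 proteasome subunits 33 were higher and 1 lower. Psmd11, of the lid, was at 30.3, 28.8 and 29.7 FPKM in sham and 68.8, 73.8 and 67.6 in injured kidneys (1.22 ± 0.07 (SE), adjusted p = 5.09e-08). The subunit that fell was Psmb9, of the immunoproteasome that interferon induces, at 6.27, 4.46 and 5.05 and 2.7, 1.61 and 2.15 FPKM (-0.99 ± 0.18 (SE), adjusted p = 0.000366). Among 16 genes of autophagy and lysosomes 7 were higher (43.8%) and 4 lower (25.0%), near the 42.5% and 29.9% of all genes. The cargo receptor Sqstm1 was at 123, 121 and 125 FPKM in sham and 608, 591 and 627 in injured kidneys (2.30 ± 0.09 (SE), adjusted p = 2.94e-09). Gabarapl1, of the autophagosome membrane, was at 528, 492 and 541 and 137, 205 and 153 (-1.67 ± 0.16 (SE), adjusted p = 2.09e-06).

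Most listed genes of the cytoskeleton and matrix were higher. All 20 actin cytoskeleton and YAP target genes were higher, 19 of them at least 2-fold, with a median of 2.12. Actn1, which cross-links actin, was at 7.39, 8.25 and 6.92 FPKM in sham and 74.6, 75.7 and 73.1 in injured kidneys (3.15 ± 0.14 (SE), adjusted p = 6.29e-09), and Ccn2, a secreted YAP target, at 39.5, 42.3 and 56.5 and 238, 309 and 199.5 (2.40 ± 0.25 (SE), adjusted p = 3.99e-06). Of 11 keratins tested 10 were higher, and 3 of the 11 passed through the injured libraries only. The simple epithelial keratins Krt8, at 59.9, 64.3 and 59 FPKM in sham and 983, 968 and 911 in injured kidneys (3.94 ± 0.12 (SE), adjusted p = 5.65e-10), and Krt18, at 12.6, 14.9 and 16 and 102, 118 and 178 (3.07 ± 0.21 (SE), adjusted p = 1.27e-07), rose alongside Krt20. Of 17 annexins and S100 proteins 13 were higher, among them Anxa2, which binds membranes and plasminogen activator, at 41.9, 53.4 and 47.9 and 566, 438 and 569.8 FPKM (3.43 ± 0.13 (SE), adjusted p = 2.07e-09), and its partner S100a10, at 108, 109 and 112 and 1187, 1005 and 1297 (3.39 ± 0.20 (SE), adjusted p = 4.87e-08). Of 28 integrin and matrix genes 24 were higher and 2 lower, or 1 lower without sham mouse 1 or injured mouse 2, and 7 of the 28 passed through the injured libraries only. Tnc, tenascin C, was at 1.3, 1.81 and 1.91 FPKM in sham and 25.2, 28.6 and 27.9 in injured kidneys (3.41 ± 0.17 (SE), adjusted p = 1.23e-08), while Timp3, the abundant inhibitor of normal kidney, fell from 462, 506 and 511 to 326, 309 and 244 (-0.76 ± 0.11 (SE), adjusted p = 6.45e-05).

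Neutrophil markers and many inflammatory genes were higher. Of 19 neutrophil genes written in the list 18 were in the table and 9 were tested, 7 of which passed through the injured libraries only. S100a8 was at 0.68, 1.89 and 4 FPKM in sham and 34.1, 81.7 and 64.9 in injured kidneys (4.32 ± 0.53 (SE), adjusted p = 1.56e-05), and the granulocyte colony-stimulating factor receptor Csf3r at 0.0959, 0.282 and 0.538 and 3.2, 2.86 and 3.2 (1.66 ± 0.18 (SE), adjusted p = 4.66e-06). The summed list was 2.59 to 15.4 FPKM in the sham and 140 to 309 in the injured kidneys. The part of these cells in the changes of the following genes was not tested. Monocyte and macrophage markers were divided, with 6 of 12 higher and 1 lower, or 2 lower without injured mouse 1. Of these 12, 2 passed through the injured libraries only and 1 through the sham libraries only. Cd68, of lysosomes, was at 2.47, 2.56 and 3.14 and 22.9, 27 and 25.2 FPKM (2.81 ± 0.16 (SE), adjusted p = 3.18e-08), Csf1r, the receptor of resident macrophages, fell from 18.1, 16.7 and 15.5 to 7.13, 5.04 and 5.58 (-1.37 ± 0.10 (SE), adjusted p = 3.16e-07) and Adgre1 was not called (-0.37 ± 0.19 (SE), adjusted p = 0.104). None of 10 T and NK cell markers and 1 of 6 B and plasma cell markers passed the filter, and the summed T and NK list was 3.13 to 4.58 FPKM in sham and 0.929 to 1.96 in injured kidneys.

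Of 34 chemokine ligands 19 were tested, and 9 were higher and 4 lower. Of the 19, 6 passed through the injured libraries only and 2 through the sham libraries only. Cxcl1, which attracts neutrophils, was at 0.403, 0.745 and 1.26 FPKM in sham and 21.3, 59.6 and 49.8 in injured kidneys (4.53 ± 0.46 (SE), adjusted p = 2.98e-06), Cxcl2, of the same kind, at 0, 0 and 0.0517 and 5.02, 18.2 and 16.2 (3.63 ± 0.51 (SE), adjusted p = 4.36e-05) and Ccl2, which attracts monocytes, at 0.221, 0.847 and 0.66 and 9.86, 6.79 and 12.6 (2.76 ± 0.40 (SE), adjusted p = 5.51e-05). The homeostatic ligands Cxcl12, at 17.5, 21.9 and 18.5 and 3.32, 3.16 and 4.72 FPKM (-2.11 ± 0.14 (SE), adjusted p = 1.14e-07), Ccl19 (-1.59 ± 0.29), Ccl21a (-1.56 ± 0.30) and Ccl28 (-2.38 ± 0.19) were the 4 that fell. Of 18 genes around interleukin 6 and STAT3, 12 were higher and 3 lower, and 5 of the 18 passed through the injured libraries only. Il6 was at 0, 0 and 0.0245 FPKM in sham and 6.55, 12.3 and 8.85 in injured kidneys (3.31 ± 0.50 (SE), adjusted p = 8.1e-05), Stat3 at 12.8, 15.3 and 14 and 62.6, 81.4 and 73.4 (2.29 ± 0.13 (SE), adjusted p = 3.8e-08) and its feedback inhibitor Socs3 at 1.15, 1.57 and 1.02 and 24.3, 43.5 and 37.9 (3.98 ± 0.19 (SE), adjusted p = 1e-08). The receptor subunit Il11ra1 fell, from 44.8, 47.2 and 47.9 to 22.6, 20.1 and 21.4 FPKM (-1.09 ± 0.11 (SE), adjusted p = 2.54e-06), while its ligand Il11 rose from 0.0737, 0.118 and 0.0464 to 7.39, 9.31 and 7.68 (3.07 ± 0.26 (SE), adjusted p = 6.18e-07).

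Of 15 NF-kB subunits and inhibitors 13 were higher and none lower, with Rela at 11.4, 12.4 and 10.6 FPKM in sham and 30.6, 43 and 35.2 in injured kidneys (1.57 ± 0.13 (SE), adjusted p = 5.58e-07) and Nfkbiz, an atypical inhibitor protein, at 1.29, 1.34 and 2.09 and 11.6, 14.9 and 13.6 (2.49 ± 0.19 (SE), adjusted p = 2.88e-07). Of 8 TNF receptor family genes tested 7 were higher, and 3 of the 8 passed through the injured libraries only. Tnfrsf12a, the receptor of TWEAK, was at 18.7, 24.4 and 21.4 FPKM in sham and 584, 717 and 598 in injured kidneys (4.82 ± 0.16 (SE), adjusted p = 9.01e-10). The study's title names the IL-17 pathway. Il17ra, its receptor, was at 10.7, 8.99 and 7.15 FPKM in sham and 10.8, 10.4 and 10.1 in injured kidneys and did not pass (0.22 ± 0.12 (SE), adjusted p = 0.109). Traf6, its signal adaptor, was at 4.96, 4.62 and 4.91 and 5.51, 7.28 and 5.76 FPKM (0.29 ± 0.10 (SE), adjusted p = 0.0156), a call lost after median-ratio rescaling, after quantile normalization and without sham mouse 2 or injured mouse 2. Il17rc, the second chain of the receptor, was at 8.07, 7.84 and 7.84 and 24.8, 18.6 and 20.4 FPKM (1.31 ± 0.10 (SE), adjusted p = 2.54e-07). Of 15 IL-17 receptor and adaptor genes tested 8 were higher and 1 lower, or 2 lower without injured mouse 1, with a median of 0.25, and Il17a was not analysed here.

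Few interferon-stimulated genes were higher. Of 18 interferon-stimulated genes 1 was higher and 5 lower, with a median of -0.25, and leaving out any 1 of sham mice 1 to 3 or injured mice 2 and 3 left 3 lower. Isg15 was at 6.55, 5.57 and 6.37 FPKM in sham and 8.21, 5.77 and 9.21 in injured kidneys (0.27 ± 0.50 (SE), adjusted p = 0.647), while Cmpk2 (-1.69 ± 0.25) and the antiviral Rsad2 (-1.45 ± 0.23) fell. Of 14 antigen presentation genes 7 were lower and 3 higher, or 1 higher without injured mouse 1. The class II genes H2-Aa, at 84.7, 90.1 and 99.9 and 42.9, 29.5 and 53.3 FPKM (-1.15 ± 0.17 (SE), adjusted p = 5.53e-05), and H2-Ab1, at 72.6, 72 and 82.4 and 35.9, 24.7 and 35.4 (-1.23 ± 0.13 (SE), adjusted p = 4.61e-06), fell, and the class I gene H2-D1 rose (0.51 ± 0.13 (SE), adjusted p = 0.00336). Of 17 complement genes 6 were higher and 8 lower, and 2 of the 17 passed through the injured libraries only. C3, the central component, rose from 1.61, 2.31 and 2.2 to 13.6, 9.07 and 16.9 FPKM (2.19 ± 0.29 (SE), adjusted p = 3.12e-05) and Cfb, factor B, fell from 197, 190.3 and 194 to 101, 102 and 96.6 (-0.95 ± 0.07 (SE), adjusted p = 2.74e-07). Of 18 coagulation and plasminogen genes 14 were higher, against 42.5% of all genes. Of the 18, 2 passed through the injured libraries only and 1 through the sham libraries only. Tissue factor, F3, was at 6.95, 8.81 and 9.78 FPKM in sham and 81.6, 122 and 87.3 in injured kidneys (3.35 ± 0.23 (SE), adjusted p = 1.57e-07).

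The injured kidneys differed from each other more than the sham kidneys did. The median SD of log2(FPKM + 1) within a group was 0.082 in sham and 0.146 in injured kidneys, and it was larger in the injured group for 8727 genes (73.2%). Injured mouse 3 was highest for all 3 chains of fibrinogen, the clotting protein that injured tubule also makes. Fga was at 47.5, 117 and 254, Fgb at 4.77, 12.2 and 189 and Fgg at 17.9, 45.1 and 353 FPKM in the 3 injured kidneys in order, where the sham kidneys did not exceed 9.36, 0.782 and 2.76. Fgb was called (4.21 ± 1.35 (SE), adjusted p = 0.0141), but without injured mouse 3 its log2 fold change was 2.73 with an adjusted p of 0.0647. By limma's voom on the recovered reads the calls of Fgb (7.53, adjusted p = 0.233) and Fgg (5.36, adjusted p = 0.0507) were lost. Injured mouse 2 was highest for Pdk4, the kinase that shuts carbohydrate out of mitochondria, at 71.5, 344 and 91.2 FPKM against 6.33, 6.89 and 8.62 in sham (4.00 ± 0.56 (SE), adjusted p = 4.54e-05). It was also highest for Cyp4a14, a fatty acid hydroxylase, at 11.7, 59.1 and 6.64 against 1.72, 1.75 and 1.93 (2.69 ± 0.75 (SE), adjusted p = 0.0068), and for the mitochondrial glutamate carrier Slc25a22, at 23.4, 117 and 24.4 against 6.79, 6.87 and 6.87 (2.42 ± 0.47 (SE), adjusted p = 0.000548). With 3 mice a group no single mouse can be tested as an outlier.

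**Figure D4:**
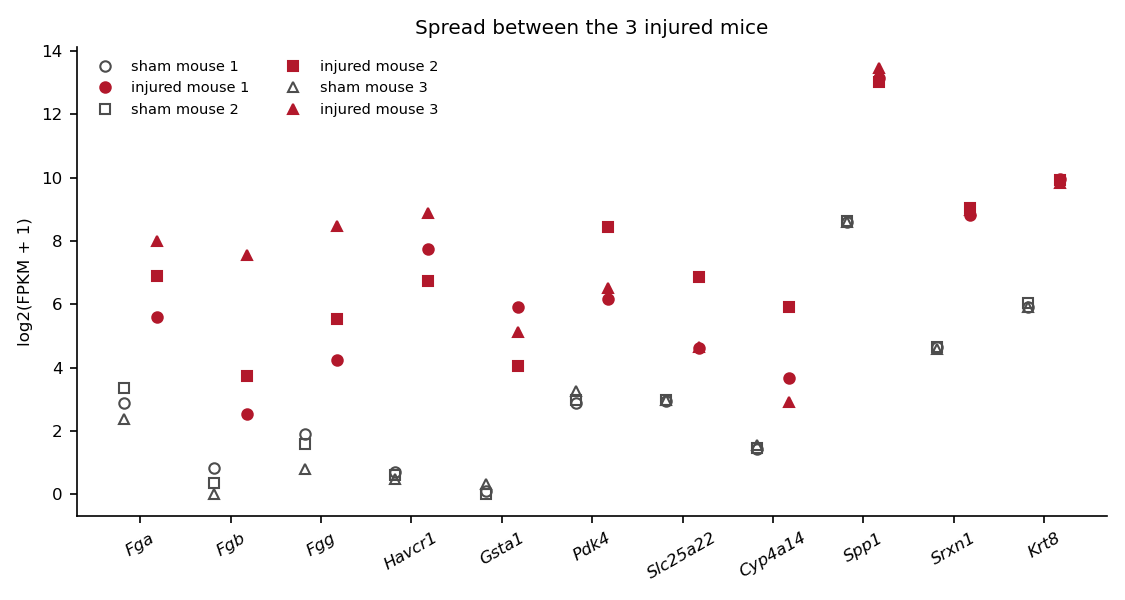
Level of 11 genes as log2(FPKM + 1) (vertical axis) in each normoxic kidney. Open grey symbols are sham mice and filled red symbols injured mice, and the shape gives the mouse number, which was not used to pair mice across groups. Injured mouse 3 is highest for Fga, Fgb and Fgg and injured mouse 2 for Pdk4, Slc25a22 and Cyp4a14, while the injured mice lie close together for Srxn1 and Krt8.

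The abundant end of the transcriptome shifted. Kap, an androgen-regulated protein of the proximal tubule, was the most abundant transcript in both groups, at 41960, 40580 and 45930 FPKM in sham and 19880, 21680 and 16250 in injured kidneys (-1.16 ± 0.14 (SE), adjusted p = 1.04e-05). This call was lost without the filter on low values and under quantile normalization, which sets the highest value alike in every library. The 10 most abundant genes of each library held 24.81% to 25.62% of all FPKM in the sham and 21.67% to 23.56% in the injured kidneys. Long noncoding RNAs, by RefSeq's gene class, were lowered more often than protein-coding genes. Of 588 tested 112 were higher (19.0%) and 303 lower (51.5%), with a median of -0.38, against 43.8% and 28.8% of 11145 protein-coding genes with a median of 0.14. This contrast was seen in the data and not tested, and whether the counting used strand is not given, so that reads of overlapping genes on opposite strands may not be told apart.

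The same operation was done in the preconditioned mice, and the difference between the 2 injury effects was tested in the same fit. It passed for 2978 genes (25.0%), of which 1394 had a more positive effect in preconditioned mice (11.7%) and 1584 a more negative one (13.3%). Values below are log2 fold changes of injured minus sham within each kind of mouse. The difference contains the normoxic effect, so the 2 are set side by side. Counts among genes chosen by the normoxic effect are only a description. Of 15 endoplasmic reticulum chaperones 13 had a more positive effect in preconditioned mice and none a more negative one. Their median was -0.75 in normoxic and 0.67 in preconditioned mice. Hspa5 was -0.44 ± 0.21 in normoxic and 1.01 ± 0.21 in preconditioned mice, a difference of 1.44 ± 0.30 (SE), adjusted p = 0.00653. Sdf2l1, a cofactor of Hspa5, was -1.35 ± 0.31 and 1.25 ± 0.31 (2.60 ± 0.44 (SE), adjusted p = 0.00233). In FPKM, Sdf2l1 was 24.7 ± 3.85 (SD, n = 3) in normoxic sham, 10 ± 6.17 in normoxic injured, 11.8 ± 1.96 in preconditioned sham and 29.7 ± 7.28 in preconditioned injured kidneys. The preconditioned sham mean lay below the normoxic sham mean.

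Of all 1186 genes at least 2-fold lower in normoxic mice, 58.9% had a more positive effect in preconditioned mice by this test, and of the 1370 at least 2-fold higher 62.6% had a more negative one. These genes were chosen by the normoxic effect, which the difference contains, so the choice favours the directions counted. Both shares cover genes at least 2-fold changed, and of all genes tested 11.7% had a more positive and 13.3% a more negative effect. The lists that follow also hold genes of smaller change, so neither share is an exact background for a whole list. Of the 12 thick ascending limb genes 8 had a more positive effect there, with medians of -2.06 and -0.80. Cldn10 was -3.65 ± 0.20 in normoxic and -1.13 ± 0.20 in preconditioned mice (2.51 ± 0.29 (SE), adjusted p = 0.00046), but Egf was -3.65 ± 0.32 and -3.08 ± 0.32 and the difference did not pass (0.57 ± 0.46 (SE), adjusted p = 0.386). Of 25 proximal tubule transporters 16 had a more positive effect, and Slc34a1 was not among them, at -1.58 ± 0.11 and -1.47 ± 0.11 (0.12 ± 0.16 (SE), adjusted p = 0.628). Keg1 had the largest more positive difference among the genes named by the rules, at -3.87 ± 0.31 and -0.52 ± 0.31 (3.35 ± 0.44 (SE), adjusted p = 0.00076), followed by Ccl28, Glyctk and Tmem52b. Hnf4a was -2.15 ± 0.15 and -0.55 ± 0.15 (1.60 ± 0.21 (SE), adjusted p = 0.000836). Of the metabolic lists 8 of 10 genes of gluconeogenesis and fructose use, 19 of 30 of amino acid breakdown, 8 of 21 of fat oxidation and 5 of 18 of the tricarboxylic acid cycle had a more positive effect. In normoxic mice 5 of the 21 and 2 of the 18 were at least 2-fold lower, so the 58.9% does not apply to these 2 lists.

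Among raised genes the effect was more negative in preconditioned mice for 20 of 28 integrin and matrix genes, 14 of 18 tubular injury markers and 12 of 20 actin and YAP genes. These counts stand beside the 62.6% above, and both are only a description. Sprr2f was 6.90 ± 0.32 in normoxic and 3.12 ± 0.32 in preconditioned mice (-3.77 ± 0.46 (SE), adjusted p = 0.000614), Lcn2 9.27 ± 0.27 and 7.15 ± 0.27 (-2.11 ± 0.38 (SE), adjusted p = 0.00294) and Pdk4 4.00 ± 0.56 and 1.04 ± 0.56 (-2.97 ± 0.80 (SE), adjusted p = 0.0195). Havcr1 did not pass this test, at 7.20 ± 0.55 and 7.23 ± 0.55, a difference of 0.03 ± 0.77 (SE), adjusted p = 0.98. None of the 84 cytosolic ribosomal proteins passed it either way, with medians of 0.59 and 0.54, and for the respiratory chain 11 of 74 had a more positive effect, with medians of -0.62 and -0.43. C3 rose further in preconditioned mice, at 2.19 ± 0.29 and 3.62 ± 0.29 (1.43 ± 0.41 (SE), adjusted p = 0.0281).

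**Figure D5:**
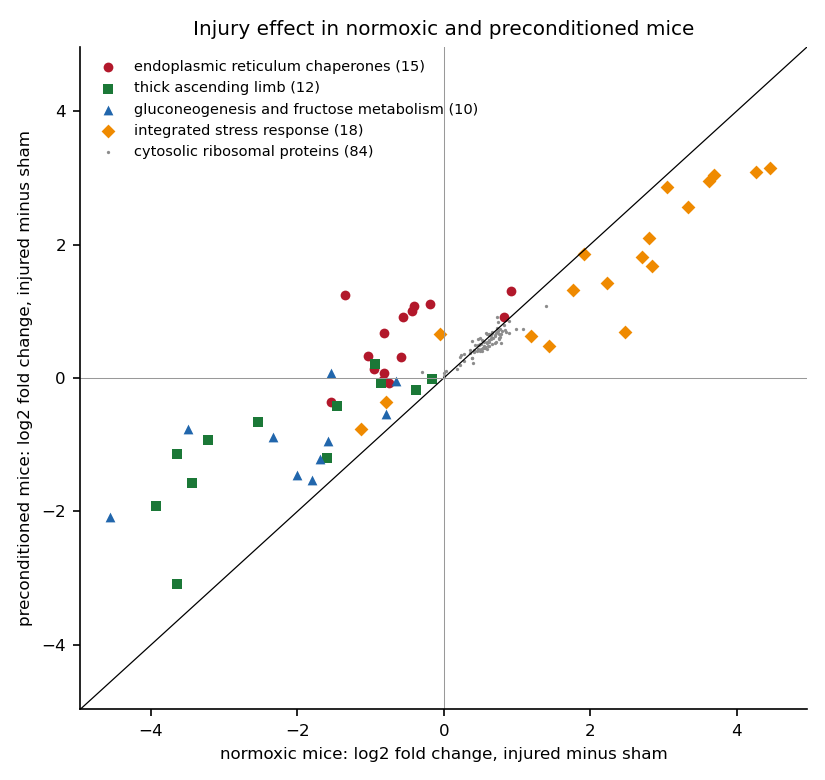
Log2 fold change of injured minus sham in normoxic mice (horizontal axis) and in preconditioned mice (vertical axis) for the tested members of 5 gene lists, 1 point a gene. The diagonal is an equal effect. Most endoplasmic reticulum chaperones lie left of 0 and above 0, thick ascending limb and gluconeogenesis genes lie above the diagonal, and ribosomal proteins lie along it.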

How the data were processed

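Total RNA of frozen kidney was extracted with TRIzol, and DNBSEQ-T7 reads came from VAHTS Universal V10 libraries, per the labels' protocols. The authors deposited 1 table of FPKM for all 12 libraries, 3 mice in each of 4 groups. The submitters' processing notes name HTSeq, DESeq2 and the mm10 build, without versions or roles. No aligner, annotation, strand setting or rule for shared reads is given there or elsewhere in the labels. The members and lists were chosen with earlier results of these data known, and for the same reason no p is given over a list.

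Each column was matched to a sample by its name. Whole reads were recovered from the FPKM steps of 25548 genes (99.98%, tolerance 1e-06) as a check of depth and for 1 alternative. No pair of libraries held equal values, and chi-square per gene was 11.07 or more for every pair. Genes that reached an FPKM of 1 in 3 or more of the 6 normoxic libraries were fitted with limma 3.58.1 (R 4.3.3) on log2(FPKM + 1), as 4 group means over all 12 libraries with a mean-variance trend, and adjusted by Benjamini-Hochberg over 11926 genes. A gene was called at an adjusted p under 0.05. All adjusted p values are limma's and two-sided, and with 1 library a mouse they rest on the spread between mice. That spread is pooled over the 4 groups, so each SE and p of the normoxic comparison includes the spread between preconditioned mice. Genes with their own values are the 15 largest changes each way, the first 3 and up to 4 most changed genes of each list, up to 5 list members that went against their list, the 10 most abundant genes of each group, the 8 most variable among injured kidneys, the genes of the study's title and the 6 largest differences between mice each way. A few genes that these rules choose and 1 of the motifs searched are not reported here, and the genes stay in all counts, medians and fits. Positions and promoters are RefSeq's for GRCm38.p6, the assembly behind mm10. Alternatives changed the pseudocount, filter, scaling, libraries, variance model and replicates.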

Additional observations from a re-analysis of the deposited data

Results flagged for a closer look

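For 33 of the genes named by fixed rules the injury effect differed between preconditioned and normoxic mice by limma's test of the difference itself at an adjusted p under 0.05. Each value is on the log2 scale and is positive where the preconditioned effect was the higher of the pair.

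Of 22 such genes that fell in normoxic mice, 17 had a more positive effect after preconditioning and none a more negative one, and Egf, Clec2h, Kap, CYTB and ND4 did not pass. The difference was 3.35 for Keg1, 2.86 for Ccl28, 2.72 for Glyctk, 2.66 for Tmem52b, 2.60 for Sdf2l1, 2.53 for Hykk, 2.51 for Cldn10, 2.48 for G6pc, 2.36 for Acmsd and 2.35 for Gatm. It was 2.31 for Nat8f6, 2.30 for Sucnr1, 2.29 for Slc5a12, 2.24 for Cckar, 2.04 for Nlrp6, 2.01 for Slc12a1 and 1.91 for Hsd3b2.

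Of 25 such genes that rose in normoxic mice, 16 had a more negative effect after preconditioning and none a more positive one, and 9, Havcr1, Gsta1, Fgb, Fgg, Fth1, Ftl1, Traf6, Slc25a22 and Cyp4a14, did not pass. The difference was -3.77 for Sprr2f, -2.97 for Pdk4, -2.75 for Rasd1, -2.71 for Vgf, -2.62 for Fosl1, -2.57 for Akap12, -2.53 for Krt20, -2.50 for Plin2 and -2.36 for Dusp5. It was -2.11 for Lcn2, -1.90 for Mt2, -1.84 for Akr1b8, -1.84 for Sfn, -1.56 for Plaur, -1.13 for Timp1 and -0.89 for Spp1. Of these 33 genes 12 were named for the size of this difference, and most others for the size of the normoxic effect, which the difference contains. The choice of genes therefore favours the directions counted here. Of all genes at least 2-fold higher in normoxic mice 62.6% had a more negative effect. Of those at least 2-fold lower 58.9% had a more positive one. Both shares rest on a choice by the normoxic effect as well. Groups of 3 mice are too small to read an outlier from.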

How the results depend on the processing

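Under 21 alternatives the counts of genes called stayed within 1.5 times of those reported. Without 1 library in turn, 4789 to 5187 genes were higher and 3320 to 3656 lower, and the difference between mice passed for 991 to 1786 and 1089 to 1789. Of all calls 58.7% were higher, 53.2% with median-ratio rescaling and 51.3% with quantile normalization, which moved the median of all genes by -0.073 and -0.097. Of 401 named genes that were called, 373 were called under every alternative, and no named gene reversed. Of 139 calls lost among 9285 gene and alternative pairs, 82 came from leaving out a library. Of 2898 list counts 79 moved by over 1.5 times, and 15 of 1449 list medians changed sign. Of those, 3 were further than 0.1 from 0 before, the red blood cell list without injured mouse 3 (-0.26 to 0.01), the adipose list without a filter (1.11 to -0.01) and the glutathione transferases with a filter at an FPKM of 5 (0.23 to -0.27). With that filter 3 neutrophil genes were tested and called, and without a filter 14 were called. With the filter at 5 the members called higher fell to 3 necroptosis and caspase genes, 4 ferroptosis genes, 6 keratins, 7 ERK phosphatase and Sprouty genes, 4 TNF receptor family genes and 4 IL-17 receptor and adaptor genes, as fewer genes were tested.

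Replicate numbers were not used to pair the mice. The correlations of deviations of same-numbered sham and injured kidneys were 0.131, 0.033 and 0.168. Those of differently numbered sham and injured kidneys ran from -0.135 to 0.012. The deviations of a group cancel for each gene, so positive same-numbered values force negative ones among the others. This contrast therefore cannot decide whether mice were paired. Same-numbered kidneys of normoxic and preconditioned injured mice gave -0.248, -0.231 and -0.082. Those of preconditioned sham and preconditioned injured mice gave 0.168, 0.066 and -0.052. Whether the numbers mark something that mice shared is not given in the labels and was not tested. With the replicate number as a block, 5051 genes were higher and 3540 lower, against 5066 and 3567, and the difference between mice passed for 1277 and 1458 genes, against 1394 and 1584. Depth was alike in all libraries, so it limits mainly genes of low FPKM, where the scale of log2(FPKM + 1) understates a change. With a pseudocount of 0.1, 1776 genes were at least 2-fold higher and 1547 lower.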

Other observations

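Clock genes, which no comparison above uses, also differed between injured and sham kidneys, with 8 of 15 lower and 4 higher against 29.9% and 42.5% of all genes. Of the 15, 2 passed the filter through the sham libraries only and had to be lower, Hlf among them, so the count is a description. The output factors Hlf, at 9.81, 16.9 and 15.6 FPKM in sham and 0.942, 0.987 and 0.718 in injured kidneys (-2.97 ± 0.17 (SE), adjusted p = 3.74e-08), Tef, at 24.8, 30.1 and 26.1 and 2.4, 4.74 and 1.77 (-2.88 ± 0.32 (SE), adjusted p = 7.4e-06), and Dbp (-1.70 ± 0.39 (SE), adjusted p = 0.00189) were lower. The repressor Nr1d1 fell from 25, 22 and 26.5 to 5.31, 6.56 and 5.92 FPKM (-1.88 ± 0.43 (SE), adjusted p = 0.00203). Per1, which glucocorticoids also induce, was higher, at 1.82, 1.92 and 4.42 FPKM in sham and 7.61, 12.7 and 8.77 in injured kidneys (1.56 ± 0.27 (SE), adjusted p = 0.000242, or 1.87 without sham mouse 3), and Per2 was lower (-0.54 ± 0.16 (SE), adjusted p = 0.00772). The labels give no hour of harvest, so the time of day cannot be told apart from the operation. The glucocorticoid target Fkbp5 was at 28.9, 19.6 and 31.5 FPKM in sham and 68.5, 131 and 72.3 in injured kidneys (1.69 ± 0.27 (SE), adjusted p = 0.000128).

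Polyamine genes moved in opposite ways. Odc1, which starts polyamine synthesis, fell from 574, 629 and 587 to 322, 193 and 298 FPKM (-1.17 ± 0.22 (SE), adjusted p = 0.000433), while Sat1, which acetylates polyamines for export, rose from 126, 112 and 120.2 to 299, 516 and 344 (1.65 ± 0.15 (SE), adjusted p = 1.64e-06) and the spermine oxidase Smox from 0.951, 1.13 and 0.96 to 9.97, 16.1 and 13.5 (2.80 ± 0.18 (SE), adjusted p = 1.01e-07). Injured mouse 2 was lowest for Odc1 and highest for Sat1 and Smox.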
